A study of Mus musculus with 40 samples.

Results

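Transcript levels of 9 genes of the PD-1 axis and of T cell exhaustion were measured in CT26 tumors of 40 mice. The genes were taken from the count table by symbol, 9 of its 54087 genes: the PD-1 ligands Cd274 (PD-L1) and Pdcd1lg2 (PD-L2), the inhibitory receptors Pdcd1 (PD-1), Lag3, Havcr2 (TIM-3), Tigit and Cd96, the costimulatory receptor Cd226 (DNAM-1), and the transcription factor Tox. CT26 is a colon carcinoma line of BALB/c origin, and 1000000 cells were implanted under the skin of BALB/c mice. Antibodies were given into the peritoneum on days 6, 9 and 12, and RNA was extracted from frozen tumor pieces collected on day 13.

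Each of the 8 groups held 5 mice and received an isotype control (mIgG2a - Isotype control, motavizumab), anti-PD1 FcS (variable regions of clone RMP1-14 on an Fc-silent mIgG2a), anti-TGFb (clone 1D11, against active TGF-β), anti-GARP:TGFb WT (clone 58A2, against the complex of GARP and TGF-β1, with a functional mIgG2a Fc), anti-GARP:TGFb FcD (the same clone with an Fc that does not bind Fcγ receptors), or anti-PD1 FcS together with anti-TGFb, anti-GARP:TGFb WT or anti-GARP:TGFb FcD. All mice shared the same tumor line, and 4 of the 8 groups, 20 mice, received anti-PD1 FcS. The tumor pieces were not sorted, so that a level is a share of the RNA of all cells of a piece, and fewer cells of a type and less RNA per cell cannot be told apart. Nothing in the labels tells whether mice shared a cage or litter.

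PD-1 is a receptor that activated T cells place on their surface. When PD-L1 or PD-L2 on a tumor, myeloid or stromal cell binds it, the phosphatases that it recruits dampen signals from the T cell receptor and from CD28. T cells that meet antigen for long times keep PD-1 and add further inhibitory receptors, among them LAG-3, TIM-3 and TIGIT, under a program in which TOX takes a central part, a state called exhaustion. PD-L1 is induced by interferon-γ, and antibodies that block PD-1 are used to treat cancer.

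The ligand genes Cd274 and Pdcd1lg2 lie next to each other on chromosome 19 of GRCm38, at chr19:29367455-29388095 and chr19:29410919-29471161, both on the plus strand. They were the 2 members that passed the test in the comparison of mice with and without anti-PD1 FcS, and for that reason the 250 bases before their RefSeq start sites are shown (GRCm38.p6, plus strand, chr19:29367188-29367437 and chr19:29410669-29410918).
Cd274: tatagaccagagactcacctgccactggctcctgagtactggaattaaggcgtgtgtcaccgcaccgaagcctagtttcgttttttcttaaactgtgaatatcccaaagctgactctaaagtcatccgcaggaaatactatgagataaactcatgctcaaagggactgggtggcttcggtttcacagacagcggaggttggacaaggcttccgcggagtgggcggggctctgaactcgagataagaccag
Pdcd1lg2: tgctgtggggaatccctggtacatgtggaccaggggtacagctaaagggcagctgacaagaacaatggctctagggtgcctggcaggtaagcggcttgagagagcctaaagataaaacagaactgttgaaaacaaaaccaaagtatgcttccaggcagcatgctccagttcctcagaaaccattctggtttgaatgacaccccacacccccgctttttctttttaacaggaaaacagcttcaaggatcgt
No letters are in capitals, since none of the motifs searched on both strands was found in either window: the STAT site TTCNNNGAA, the interferon-stimulated element core (a pair of GAAA separated by 2 bases), the AP-1 site TGANTCA and the NF-κB site GGGANTTTC. Among 32851 promoter windows of the same length, 7.02%, 2.98%, 6.75% and 0.941% held these letters, in that order. The absence of a match says only that these letters are not in these 250 bases, and other forms of the sites were not searched.

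Total counts per mouse ran from 11931730 to 20680548, with a median of 14030511, and all 9 members were among the 14760 genes that passed the filter on low counts. Levels are given as CPM (counts per 1000000 counts), scaled with TMM factors. Several libraries stood apart in leukocyte genes. In library 77, the fifth mouse of anti-GARP:TGFb WT + anti-PD1 FcS, the pan-leukocyte gene Ptprc reached 782 CPM, beside a median of 139.6 CPM over the 40 mice. Libraries 52 (anti-PD1 FcS), 48 (anti-TGFb), 44 (anti-GARP:TGFb FcD + anti-PD1 FcS) and 53 (anti-TGFb + anti-PD1 FcS) held the highest levels of most of the 9 genes in their groups, and the summed T cell markers were lowest in library 54 (anti-PD1 FcS), at 16.6 CPM. The libraries formed 2 parts: the Y-linked gene Ddx3y was above 1 CPM in all 20 of libraries 41 to 60 and in 0 of libraries 61 to 80, and Xist the other way round. Each group had 2 or 3 mice in each part.

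Per kilobase of exon, Cd274 was the most abundant of the 9 genes, at a mean of 33.5 CPM per kilobase over the 40 mice. It was followed by Tigit (11.1), Havcr2 (9.87), Lag3 (4.71), Pdcd1 (4.66), Pdcd1lg2 (3.59), Cd96 (1.03), Cd226 (0.492) and Tox (0.242 CPM per kilobase). Neighbors in this order overlapped for several genes: Lag3 was above Pdcd1 in 22 of 40 mice, and Tigit above Havcr2 and Pdcd1 above Pdcd1lg2 in 26 of 40 each, while Havcr2 exceeded Lag3 in all 40. Counts behind these levels went down to 15 for Pdcd1, 7 for Pdcd1lg2, 6 for Cd96, 4 for Tox and 3 for Cd226 in the lowest mouse, so that single low values of these genes carry a large counting error. Pdcd1, Pdcd1lg2 and Cd226 varied most between mice, with 43.3-, 56.4- and 70.0-fold between the lowest and the highest tumor. Tigit varied least, from 6.53 to 18.2 CPM, a 2.79-fold range.

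**Figure D1:**
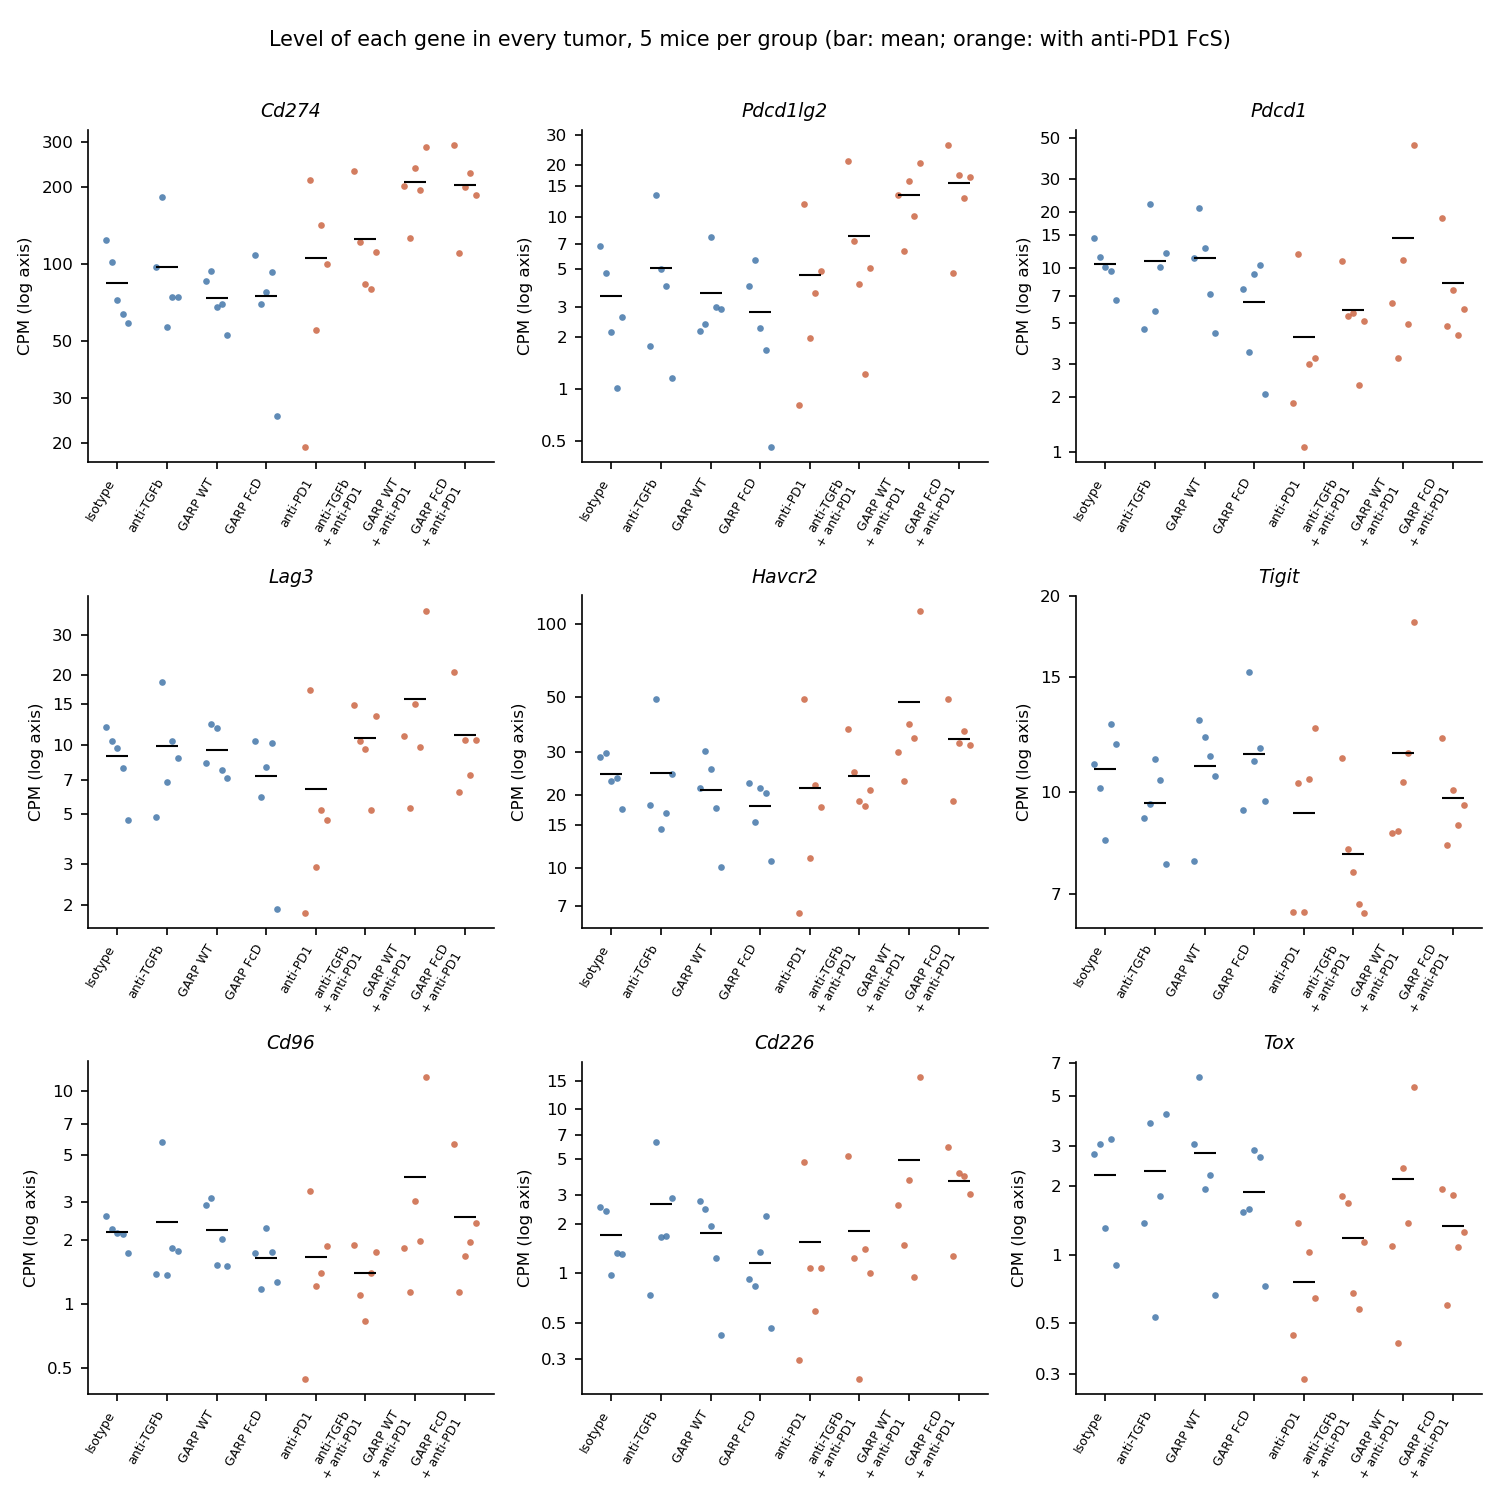
Level of the 9 genes in each tumor, in CPM on a log axis, with 5 mice per group in order of library number and the group mean as a bar. Groups without anti-PD1 FcS are blue and groups with it orange (GARP WT and GARP FcD stand for anti-GARP:TGFb WT and FcD). Cd274 of the WT combination lies between 126 and 285 CPM, above all isotype controls, while Tigit stays between 6.53 and 18.2 CPM in all 40 tumors.

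Comparing the 20 mice that received anti-PD1 FcS with the 20 that did not asks whether PD-1 blockade, averaged over its partners, went with a change of these genes. Transcripts of both PD-1 ligands were higher in the mice with anti-PD1 FcS: Cd274 by 1.88-fold and Pdcd1lg2 by 2.55-fold. Tox was lower, at 0.552-fold, and missed the threshold. The receptors differed by less, from 0.768-fold for Pdcd1 to 1.52-fold for Cd226, and none of them passed. Of the 9 genes, 2 passed an adjusted p of 0.05, both higher, beside 0.589% of all genes tested (87 of 14760) and 0.474% higher. At an unadjusted p under 0.05 there were 4, beside 23.4% of all genes: Cd274, Pdcd1lg2 and Havcr2 higher (13.3% of all genes) and Tox lower (10.1%). The median log2 fold change was 0.24 over the 9 genes and -0.00 over all genes. This average over partners is not the effect of anti-PD1 FcS alone. Against the isotype control, anti-PD1 FcS alone had log2 fold changes of 0.33 ± 0.41 for Cd274 and 0.41 ± 0.67 for Pdcd1lg2 (SE, unadjusted p = 0.420 and 0.548 in edgeR's test).

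Cd274, which encodes PD-L1, was measured at 124, 101, 71.9, 63.6 and 58.5 CPM in the 5 isotype control mice. With anti-GARP:TGFb WT + anti-PD1 FcS it stood at 201, 126, 236, 194 and 285 CPM, and with anti-GARP:TGFb FcD + anti-PD1 FcS at 292, 109.7, 199, 225 and 186 CPM. All 5 mice of the WT combination and 4 of 5 of the FcD combination exceeded every isotype control mouse. Only Cd274 among the 9 genes had 5 mice above 5 in the WT combination, and 1.35% of all genes did. With anti-TGFb + anti-PD1 FcS the values were 230.5, 122, 83.7, 79.4 and 111 CPM, and with anti-PD1 FcS alone 19.3, 213, 54.9, 141 and 99.98 CPM. These last groups overlapped with the controls, and anti-PD1 FcS alone held both the lowest Cd274 level of all 40 mice (library 47) and a high value (library 52). In the groups without anti-PD1 FcS the means were 83.9 ± 27.96 (isotype control), 97.1 ± 50.05 (anti-TGFb), 73.7 ± 16.0 (anti-GARP:TGFb WT) and 74.6 ± 31.1 CPM (anti-GARP:TGFb FcD; SD, n = 5 each). Over all 20 mice with anti-PD1 FcS the mean was 160.5 ± 76.3 CPM, against 82.3 ± 32.3 CPM without (SD, n = 20 each), and 18 of 20 treated mice lay above the median of the untreated. The log2 fold change was 0.91 ± 0.20 (SE), with an adjusted p of 0.0477 in edgeR's quasi-likelihood test.

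Pdcd1lg2, which encodes the second ligand, PD-L2, was highest in the same combinations, at lower levels. The isotype controls had 6.80, 4.71, 2.15, 1.02 and 2.63 CPM. The WT combination had 13.4, 6.37, 16.1, 10.2 and 20.6 CPM, and the FcD combination 26.2, 4.75, 17.4, 12.9 and 17.1 CPM. In each of these combinations 4 of 5 mice exceeded all isotype controls. Mice on anti-TGFb + anti-PD1 FcS had 21.1, 7.21, 4.08, 1.24 and 5.05 CPM, and mice on anti-PD1 FcS alone 0.812, 11.8, 1.997, 3.61 and 4.83 CPM. Most of these lay within the range of the controls. Across the 20 and 20 mice the means were 10.3 ± 7.48 CPM with and 3.74 ± 2.96 CPM without anti-PD1 FcS (SD), with 17 of 20 treated mice above the untreated median. The log2 fold change was 1.35 ± 0.33 (SE), and the adjusted p of edgeR's quasi-likelihood test was 0.0498.

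Both ligand calls lay at the edge of the threshold. Without the filter on low counts neither ligand was called, and with DESeq2 size factors not both were. When each of the 40 mice was left out in turn, both ligands stayed under 0.05 in 10 fits, Cd274 alone in 3 and neither in 27. Across these fits the log2 fold change of Cd274 stayed between 0.80 and 1.00 and that of Pdcd1lg2 between 1.15 and 1.54, and the adjusted p ranged from 0.0039 to 0.103 and from 0.0052 to 0.113 (edgeR). The adjusted p was lowest without library 48 and highest without library 52 for both. The libraries whose removal left neither ligand called were 42, 43, 44, 49, 51, 52, 53, 56, 57, 58, 59, 60, 61, 63, 64, 65, 67, 68, 71, 72, 73, 74, 75, 76, 77, 78 and 79. Within libraries 41 to 60 the difference in mean log2 CPM was 0.48 for Cd274 and 0.78 for Pdcd1lg2, and within libraries 61 to 80 it was 1.24 and 1.82.

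Transcripts of leukocyte genes were set beside the ligands. The paper, by flow cytometry, found no change in the density of leukocytes in such tumors with any treatment. Ptprc had a mean of 209 ± 153 CPM with anti-PD1 FcS and 139 ± 64.9 CPM without (SD, n = 20 each), a log2 fold change of 0.54 with an adjusted p of 0.117. Summed macrophage markers ran from 968 to 6029 CPM with anti-PD1 FcS (median 1944) and from 979.6 to 3017 CPM without (median 1476). All 7 of them had a log2 fold change above 0, and 0 of 7 passed. Neutrophil markers had a median sum of 64.2 CPM (23.4 to 175) with anti-PD1 FcS and 29.3 CPM (16.4 to 269.9) without. With the Ptprc level of each mouse as a term in the model, an alternative chosen after seeing the data, the log2 fold changes were 0.50 for Cd274 (adjusted p = 0.299) and 0.80 for Pdcd1lg2 (adjusted p = 0.385, both edgeR). Over the 40 mice Cd274 had a Pearson correlation of 0.819 with Ptprc and Pdcd1lg2 of 0.665 (Spearman's rho 0.810 and 0.593). Within the 20 mice with anti-PD1 FcS r was 0.841 and 0.819, and within the 20 without it was 0.706 for Cd274 and 0.225 for Pdcd1lg2. The part of leukocyte content in the ligand levels was not tested further.

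Interferon-γ transcripts stood beside the ligands as well. Ifng, the gene of the cytokine that induces PD-L1, was higher with anti-PD1 FcS, at 2.79 ± 1.34 CPM against 1.34 ± 0.612 CPM (SD, n = 20 each). The log2 fold change was 1.00 (edgeR, adjusted p = 0.0498). Its level went down to 0.148 CPM in a mouse on anti-PD1 FcS and 0.199 CPM in one on anti-GARP:TGFb FcD. Single low values of Ifng thus carry a large counting error. With a mouse left out, Ifng passed in 10 of 40 fits and not in 30, with a log2 fold change between 0.83 and 1.08 and an adjusted p between 0.00732 and 0.113. It did not pass with DESeq2 size factors (0.0501), without the filter on low counts (0.0923) or with the Ptprc level as a term (0.322, log2 fold change 0.62). Over the 40 mice, Cd274 correlated with Ifng with r = 0.872 and rho = 0.865, and Pdcd1lg2 with r = 0.765 and rho = 0.737. The permutation p of each was 1e-05, the smallest that 100000 permutations can give. Over the 27 relations computed the adjusted p was 1.59e-05 for r and 2.08e-05 for rho. These values over 40 mice include shifts between the treatment groups. For deviations from the group means, r with Ifng was 0.875 for Cd274 and 0.668 for Pdcd1lg2. Without libraries 47 and 75, the mice farthest from the median Ifng level, r was 0.804 and 0.695. Within the parts, r for Cd274 was 0.902 (libraries 41 to 60) and 0.841 (61 to 80), and for Pdcd1lg2 0.761 and 0.787. Whether interferon-γ set the ligand levels was not tested.

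**Figure D2:**
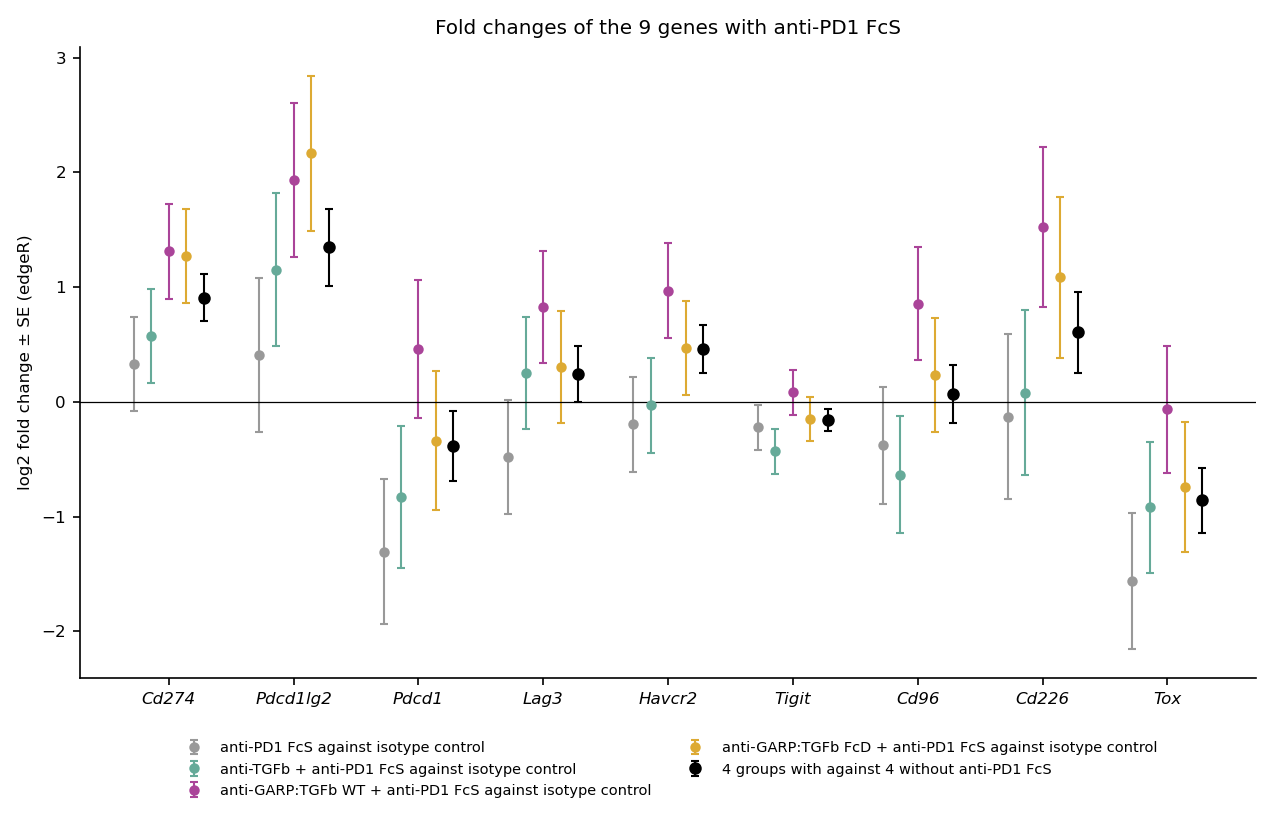
Log2 fold change with its SE from edgeR for the 9 genes, in the 4 groups that received anti-PD1 FcS against the isotype control (5 mice each) and for all 20 mice with against 20 without anti-PD1 FcS (black). The black points of Cd274 (0.91) and Pdcd1lg2 (1.35) are highest and that of Tox (-0.86) is lowest.

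Pdcd1 encodes PD-1, the receptor that the antibody binds. Its gene lies on the minus strand of chromosome 1 (chr1:94038305-94052553, GRCm38). It was measured at 14.4, 11.4, 10.1, 9.59 and 6.65 CPM in the isotype controls and at 1.85, 11.9, 1.07, 3.02 and 3.25 CPM with anti-PD1 FcS alone. Of the latter 4 of 5 mice lay below all controls, and library 52 lay among them. The log2 fold change was -1.30 ± 0.63 (SE, unadjusted p = 0.0453 in edgeR's test), and the adjusted p was 1.00, so that it did not pass. Without library 52 the log2 fold change was -2.18, and without library 54 it was -1.06. Pdcd1 and Tox were the 2 members with an unadjusted p under 0.05 in this comparison, both lower, beside 0.955% of all genes (0.352% lower), and 0 members passed after adjustment. With the WT combination Pdcd1 had 6.42, 3.24, 11.005, 4.97 and 46.3 CPM. Without the last of these mice, library 77, the log2 fold change against the isotype control went from 0.46 to -0.71. With the FcD combination the values were 18.7, 4.83, 7.53, 4.32 and 5.97 CPM, and with the anti-TGFb combination 10.8, 5.45, 5.67, 2.31 and 5.12 CPM. In each of the 3 combinations, then, 3 or 4 of 5 mice lay below all isotype controls. Averaged over partners, the log2 fold change of Pdcd1 with anti-PD1 FcS was -0.38 ± 0.31 (SE, adjusted p = 0.459 in edgeR's test).

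Pdcd1 followed the T cell content of a tumor closely. Its correlation with the mean log2 CPM of Cd3d, Cd3e and Cd3g, which encode chains of the T cell receptor complex, was r = 0.929 and rho = 0.903 over the 40 mice (permutation p 1e-05 each, adjusted p 1.59e-05 and 2.08e-05 over 27 relations). Without libraries 77 and 54, the farthest on the CD3 axis, r was 0.896, and it was 0.964 and 0.888 within the parts. For the 20 mice with and the 20 without anti-PD1 FcS taken apart, r was 0.961 and 0.962. The plot of levels beside the CD3 genes shows the mice on anti-PD1 FcS mostly below the others at a given CD3 level, with overlap.

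**Figure D3:**
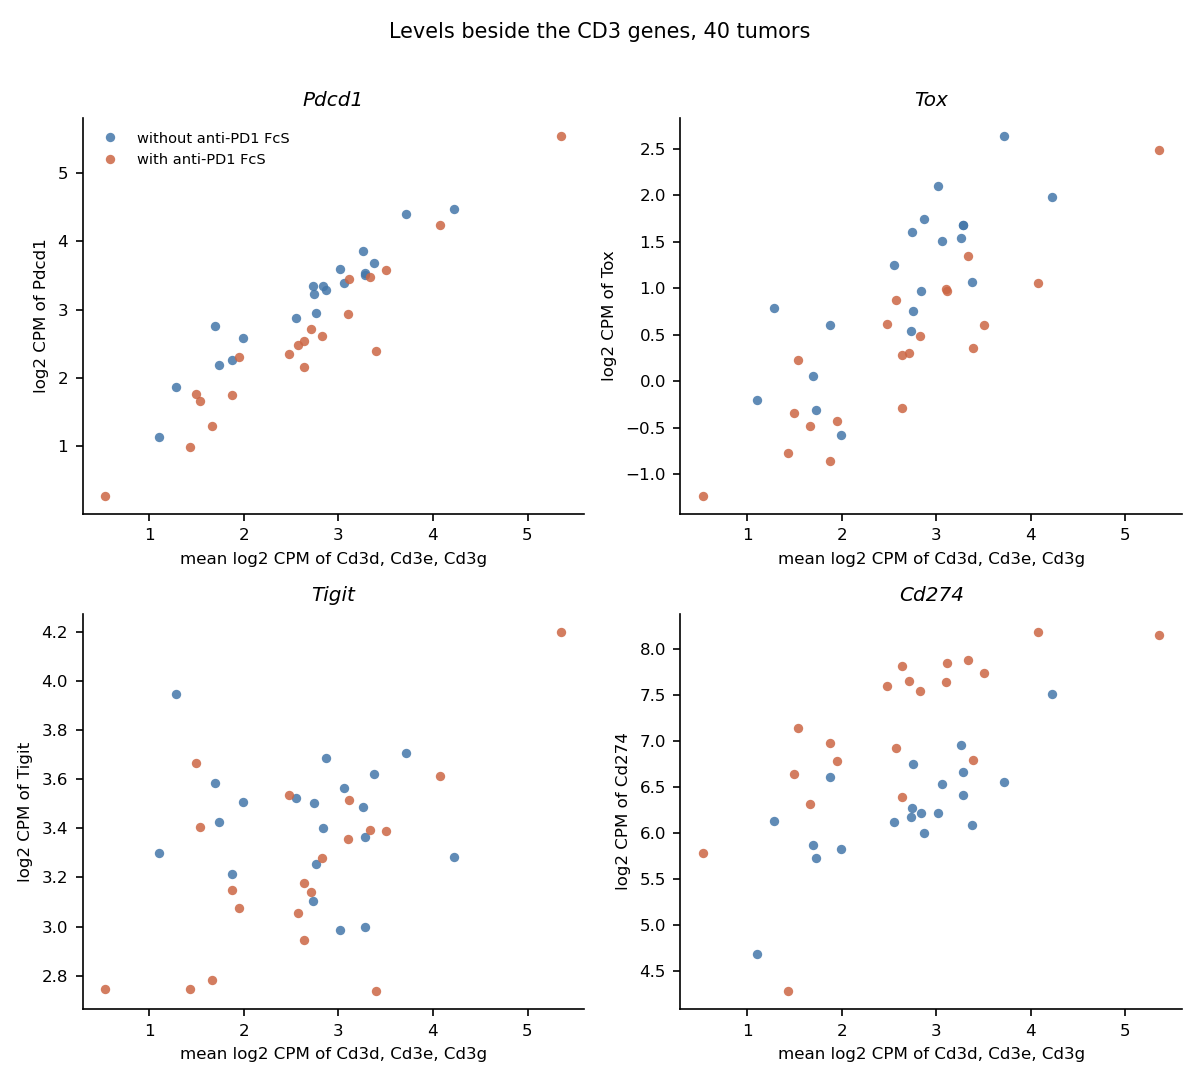
Log2 CPM of Pdcd1, Tox, Tigit and Cd274 (y axes) against the mean log2 CPM of Cd3d, Cd3e and Cd3g (x axes) in 40 tumors, with mice on anti-PD1 FcS in orange and the others in blue. Pdcd1 rises with the CD3 genes (r = 0.929) and, relative to CD3, all 20 orange points lie below the blue median but 12 below all blue points. Tigit varies little with CD3 (r = 0.349), and for Cd274 17 of 20 orange points lie above the blue median and 7 above all blue points.

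Set against the CD3 genes, Pdcd1 was lower in every group that received anti-PD1 FcS than in its partner group without. The mean of log2 CPM minus the CD3 mean was -0.05 ± 0.30 with anti-PD1 FcS against 0.59 ± 0.30 with the isotype control (SD, n = 5 each). It was -0.25 ± 0.49 against 0.46 ± 0.14 with anti-TGFb as the partner, 0.02 ± 0.14 against 0.40 ± 0.18 with anti-GARP:TGFb WT, and -0.07 ± 0.33 against 0.32 ± 0.22 with anti-GARP:TGFb FcD. For the WT partner the groups did not overlap, with all 5 treated mice lower, which on this scale held for 0.00678% of all genes (1 of 14760, Pdcd1 itself). For the others 4, 4 and 3 of 5 mice on anti-PD1 FcS lay below all 5 of the partner group, in the order isotype control, anti-TGFb and FcD. All 20 mice with anti-PD1 FcS lay below the median of the 20 without (0.43), and the full ranges were -0.9996 to 0.36 with and 0.03 to 1.06 without. The difference of the means was -0.53 over all mice, -0.42 within libraries 41 to 60, -0.64 within libraries 61 to 80, and -0.55 without libraries 77 and 48, a choice made after seeing the data. With the CD3 level of each mouse as a term in the model, the log2 fold change of Pdcd1 was -0.52 ± 0.09 (SE, edgeR, adjusted p = 0.000229). In that model 5 of the 9 genes passed, beside 17.6% of all genes: Cd274 (0.93), Pdcd1lg2 (1.30) and Havcr2 (0.44) higher, Pdcd1 (-0.52) and Tox (-0.84) lower, in log2 fold change. With the Ptprc level as a term, 4 genes in all passed, which is 0.0271%, and Pdcd1 (-1.11, adjusted p = 0.0105) and Tox (-1.44, adjusted p = 6.4e-05) were the members among them (edgeR).

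**Figure D4:**
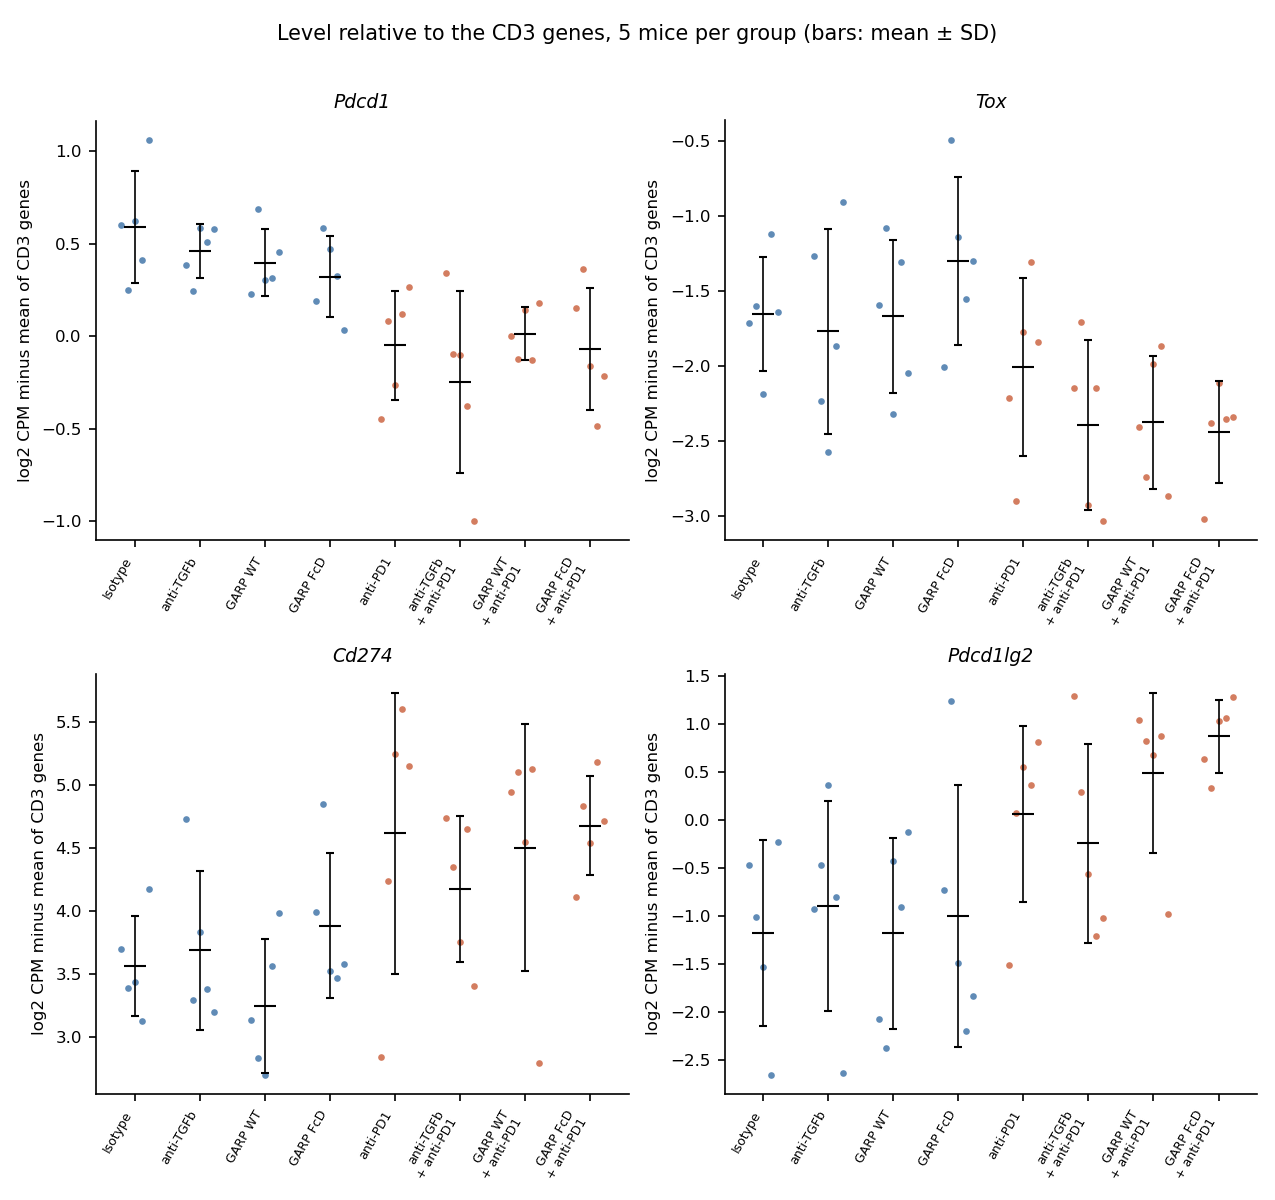
Log2 CPM minus the mean log2 CPM of the CD3 genes for Pdcd1, Tox, Cd274 and Pdcd1lg2, with 5 mice per group as points and the mean ± SD as bars. Orange marks groups with anti-PD1 FcS. Relative Pdcd1 has means from 0.32 to 0.59 in the groups without and from -0.25 to 0.02 in the groups with anti-PD1 FcS.

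Tox encodes a nuclear factor needed for the exhausted state of CD8+ T cells. It lies on the minus strand of chromosome 4 (chr4:6686353-6991557, GRCm38) and had the lowest level per kilobase of the 9 genes. The isotype controls had 2.78, 3.06, 1.32, 3.22 and 0.901 CPM, and mice on anti-PD1 FcS alone 0.443, 1.38, 0.285, 1.03 and 0.649 CPM. The latter fell below all controls in 3 of 5 mice. This was a log2 fold change of -1.56 ± 0.59 (SE, unadjusted p = 0.0128, adjusted p = 1.00 in edgeR's test). With anti-TGFb + anti-PD1 FcS the values were 1.82, 1.69, 0.680, 0.576 and 1.14 CPM, with the WT combination 1.09, 0.411, 2.40, 1.39 and 5.48 CPM, and with the FcD combination 1.95, 0.603, 1.84, 1.08 and 1.26 CPM. Over 20 and 20 mice the means were 1.36 ± 1.13 CPM with and 2.32 ± 1.38 CPM without anti-PD1 FcS (SD), and 18 of 20 treated mice lay below the untreated median. The log2 fold change was -0.86 ± 0.29 (SE), and the adjusted p of 0.0809 did not pass in edgeR's test, nor did it in any fit with a mouse left out (0.0560 to 0.124). Relative to the CD3 genes, Tox stood at -2.30 ± 0.49 with and -1.60 ± 0.53 without anti-PD1 FcS (SD, n = 20 each), with 19 of 20 treated mice below the untreated median. The difference was larger with anti-GARP:TGFb FcD as the partner (-1.14) than with the isotype control (-0.36), and this was not tested as a difference between partners.

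Havcr2 encodes TIM-3, which T cells, macrophages and dendritic cells carry. Its values were 28.6, 29.7, 22.8, 23.5 and 17.5 CPM in the isotype controls, 30.05, 22.7, 38.8, 34.2 and 113 CPM with the WT combination, and 49.1, 18.8, 32.5, 36.5 and 31.9 CPM with the FcD combination. In both of these combinations 4 of 5 mice lay above all controls. With anti-TGFb + anti-PD1 FcS it had 37.1, 24.7, 18.9, 18.0 and 20.9 CPM, with 1 of 5 mice above all controls, and with anti-PD1 FcS alone 6.57, 49.1, 10.99, 21.97 and 17.7 CPM, with 1 above and 2 below. Averaged over partners, Havcr2 had a log2 fold change of 0.46 ± 0.21 (SE, unadjusted p = 0.0314, adjusted p = 0.167 in edgeR's test), which went to -0.05 with the Ptprc level as a term. Among the 9 genes, its level was the most like that of Ptprc, with r = 0.925 and rho = 0.864 over 40 mice (permutation p 1e-05 each, r = 0.888 without libraries 77 and 48, 0.915 and 0.942 within the parts).

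Lag3, whose product binds MHC class II, was 8.92 ± 2.76 CPM in the isotype controls (SD, n = 5). It was 6.39 ± 6.25 CPM with anti-PD1 FcS alone, 15.9 ± 13.0 CPM with the WT combination, 11.01 ± 5.69 CPM with the FcD combination and 10.6 ± 3.74 CPM with the anti-TGFb combination. Without library 77 the mean of the WT combination was 10.2 CPM, and without library 52 that of anti-PD1 FcS alone was 3.66 CPM. The means over all 5 mice differed from the isotype control by less than the SD of the treated group. The average log2 fold change with anti-PD1 FcS was 0.24 ± 0.24 (SE, adjusted p = 0.563 in edgeR's test). Lag3 correlated with the CD3 genes about as closely as Pdcd1 did (r = 0.917 and rho = 0.917, permutation p 1e-05 each, r = 0.888 without libraries 77 and 54). Relative to the CD3 genes it was 0.55 ± 0.35 with and 0.38 ± 0.39 without anti-PD1 FcS (SD, n = 20 each).

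Tigit, Cd96 and Cd226 share ligands of the nectin family, with TIGIT and CD96 as inhibitory and CD226 as activating receptors. Tigit was 10.9 ± 1.64 CPM in the isotype controls and between 8.06 ± 1.92 (anti-TGFb + anti-PD1 FcS) and 11.5 ± 3.95 CPM (anti-GARP:TGFb WT + anti-PD1 FcS) in the treated groups (SD, n = 5 each). With anti-TGFb + anti-PD1 FcS, the 5 mice had 11.3, 8.18, 7.56, 6.75 and 6.53 CPM, and 4 of them lay below all isotype controls (11.1, 10.2, 8.47, 12.7 and 11.8 CPM). The log2 fold change of -0.43 ± 0.20 (SE, unadjusted p = 0.0353) did not pass in edgeR's test (adjusted p = 0.220). Tigit was 1 member with an unadjusted p under 0.05 in this comparison, where 20.1% of all genes had such a value (11.6% lower), and 0 members passed after adjustment. Unlike those of the other receptors, its levels hardly followed the CD3 genes: r was 0.349 (permutation p = 0.0267) and rho 0.211 (p = 0.191) over 40 mice, and r was 0.067 without libraries 77 and 54, so that the relation rested on those mice. Within the 20 mice on anti-PD1 FcS r was 0.624, and within the 20 without it was -0.186.

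Cd96 was 2.17 ± 0.309 CPM in the isotype controls, and Cd226 was 1.71 ± 0.704 CPM (SD, n = 5 each). With the FcD combination Cd226 had 5.91, 1.28, 4.09, 3.91 and 3.05 CPM, 4 of 5 mice above all controls (2.53, 2.39, 0.972, 1.34 and 1.32 CPM), and with the WT combination 2.63, 1.49, 3.73, 0.950 and 15.9 CPM. With anti-TGFb + anti-PD1 FcS it was 1.82 ± 1.958 CPM, and with anti-PD1 FcS alone 1.56 ± 1.82 CPM (SD, n = 5 each), with 1 mouse of each group above all controls. For the FcD and the WT combination the log2 fold changes were 1.09 ± 0.70 and 1.52 ± 0.70 (SE), with adjusted p of 0.411 and 0.215 in edgeR's test. Without library 77 the value for the WT combination was 0.36. Averaged over partners, Cd226 had a log2 fold change of 0.61 ± 0.35 and Cd96 of 0.07 ± 0.25 (SE, adjusted p = 0.294 and 0.886 in edgeR's test). The sign of Cd96 turned when any of libraries 52, 77 and 44 was left out (-0.04, -0.17 and -0.05) and when the CD3 level was a term (-0.01). Relative to the CD3 genes, Cd96 was -1.63 ± 0.64 with and -1.60 ± 0.50 without anti-PD1 FcS, and Cd226 was -1.58 ± 0.92 and -1.94 ± 0.46 (SD, n = 20 each).

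Taken against the isotype control one treatment at a time, none of the 9 genes passed an adjusted p of 0.05 in any of the 7 treatments, and 0 of 14760 genes did in each, which is 0%. DESeq2's Wald test, an alternative, called 0 members too, and between 0 and 139 genes, but other alternatives did call members. With the CD3 level as a term, Cd274 and Pdcd1lg2 passed as higher and Pdcd1 as lower in the FcD combination, beside 2.76% of all genes, and Pdcd1 passed as lower in the anti-TGFb combination, beside 1.71%. In the fit of the compared groups only, Cd274 passed as higher in the FcD combination, among many other genes whose count is given in the last section. With the Ptprc level as a term Cd96 and Tox passed as lower in the anti-TGFb combination, beside 8.86%. In the WT combination 4 members had an unadjusted p under 0.05, all higher (Cd274, Pdcd1lg2, Havcr2 and Cd226), beside 20.7% of all genes and 13.2% higher. Without library 77, the Havcr2 and Cd226 log2 fold changes went from 0.97 and 1.52 to 0.36 each. In the FcD combination 2 did (Cd274 and Pdcd1lg2), beside 16.6% and 10.7%. The log2 fold changes of Cd274 were 1.31 ± 0.41 and 1.27 ± 0.41 and those of Pdcd1lg2 1.93 ± 0.67 and 2.17 ± 0.68 (SE), with adjusted p of 0.159 for both genes in the WT and 0.225 for both in the FcD combination (edgeR). In the 3 treatments without anti-PD1 FcS no member had an unadjusted p under 0.05, while 0.969% (WT), 0.474% (FcD) and 2.32% (anti-TGFb) of all genes did. The ligand changes there were between -0.33 (Pdcd1lg2, FcD) and 0.53 (Pdcd1lg2, anti-TGFb), with 95% intervals of -1.67 to 1.02 and -0.79 to 1.85.

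The 3 combinations were also compared with anti-PD1 FcS alone, which asks what the second antibody added. With anti-GARP:TGFb WT all 9 genes had a log2 fold change above 0, from 0.31 (Tigit) to 1.77 (Pdcd1), and 8 of 9 had an unadjusted p under 0.05, beside 17.2% of all genes (11.2% higher). No member passed after adjustment, with adjusted p of 0.231 to 0.253 for those 8 (edgeR), and 0 of 14760 genes did (0%), nor did any gene in DESeq2's Wald test. This comparison rested on single mice. Without library 52, the anti-PD1 FcS mouse with the highest levels of most members, 4 members passed (Pdcd1, Lag3 and Havcr2 with an adjusted p of 0.0414 each and Cd226 with 0.0445, edgeR) among 538 genes, and without library 77 the log2 fold change of Pdcd1 was 0.60. With anti-GARP:TGFb FcD 2 members had an unadjusted p under 0.05, both higher (10.7% of all genes, 6.46% higher), Cd274 with 0.94 ± 0.41 and Pdcd1lg2 with 1.76 ± 0.66 (SE), with an adjusted p of 0.458 for both (edgeR). With a mouse left out, that of Pdcd1lg2 ran from 1.48 (without library 47) to 2.47 (without library 52). With anti-TGFb no member did, beside 17.1% of all genes, and 1 gene in all passed after adjustment (0.00678%). These comparisons and those of the monotherapy share the anti-PD1 FcS mice.

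Whether a partner antibody changed the effect of anti-PD1 FcS was tested by the interaction, that is the combination against anti-PD1 FcS minus the partner against the isotype control. No member passed an adjusted p of 0.05 in any of the 3 interactions, and neither did any other gene (0%), while DESeq2's Wald test called 0 members and up to 2 genes. Havcr2 with anti-GARP:TGFb WT (log2 1.38 ± 0.58, unadjusted p = 0.0238, adjusted p = 0.483) and Pdcd1lg2 with anti-GARP:TGFb FcD (2.09 ± 0.95, unadjusted p = 0.0348, adjusted p = 0.787) were the members with an unadjusted p under 0.05 (SE, edgeR), both higher, beside 8.75% and 4.49% of all genes (4.3% and 2.45% higher). With anti-TGFb there were 0, beside 2.3%. The interaction of Havcr2 was 0.77 without library 77 and 1.95 without library 52, and that of Pdcd1lg2 was 2.80 without library 52 and 1.68 without library 46. The interaction of Cd274 was 1.17 ± 0.58 with anti-GARP:TGFb WT, 1.11 ± 0.58 with FcD and 0.04 ± 0.58 with anti-TGFb (SE). Of the compared antibodies, the WT and FcD forms of clone 58A2 differ in their Fc only, and their combinations had Cd274 means of 208 ± 58.4 and 202 ± 65.9 CPM (SD, n = 5 each).

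Related genes were described from lists, in the comparison of 20 with 20 mice, where the median log2 fold change of all genes was -0.00. Of 11 tested regulators of PD-L1, 1 passed, Ifng, and 10 had a value above 0 (median 0.21), from -0.03 for Cmtm4 to 1.00 for Ifng. Socs1 and Irf1, targets of interferon signaling, had 0.40 each with adjusted p of 0.0546 and 0.0681 (edgeR). Of 11 surface and secreted exhaustion markers, 1 passed, Cd38, an NAD-degrading ectoenzyme, with 0.98 ± 0.21 (SE, adjusted p = 0.0328 in edgeR's test), and all 11 were above 0 (median 0.50), the lowest being Cxcr6 at 0.14. Cd38 passed in 20 of the 40 fits with a mouse left out, and passed neither without the filter (0.0890) nor with the Ptprc level as a term (0.110, log2 fold change 0.47). Of 13 tested transcription factors of the exhaustion program other than Tox, none passed, 11 were above 0 and the median was 0.37, between -0.09 for Nr4a2 and 0.54 for Irf4. Tox, with -0.86, lay below all of them.

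Among 8 tested coinhibitory receptors outside the 9, none passed and the median was 0.42, from -0.00 for Cd160 to 0.96 for Ctla4. Of 11 genes of PD-1 signaling and CD28, none passed, with a median of 0.34 between -0.13 for Cd80 and 0.83 for Cd28. Of 11 tested ligands of the other receptors, none passed, with a median of 0.20 from -0.07 for Pvrl2 (Nectin2) to 0.87 for H2-Eb1, a chain of MHC class II, the ligand of LAG-3. The T cell markers had a median of 0.11 (10 tested, 0 passed), from -0.19 for Cd8a to 0.53 for Cd2, and their summed level ran from 16.6 to 368 CPM with (median 58.0) and from 17.8 to 190.5 CPM without anti-PD1 FcS (median 65.1). None of the marker lists had a gene at 0 in all mice. In lists of other cell types the median was 0.46 for regulatory T cells, 0.37 for NK cells, 0.30 for B cells and 0.42 for macrophages. It was 0.37 for dendritic cells, 1.03 for neutrophils, -0.01 for fibroblasts and 0.36 for endothelium. For epithelial genes it was 1.64, for skeletal muscle 0.37 and for adipocytes 0.96. No gene of these lists passed. The epithelial genes summed to 346 CPM in library 71, the highest of the 40 mice, and to a median of 16.4 CPM. Whether they follow the CT26 carcinoma cells was not tested.

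**Figure D5:**
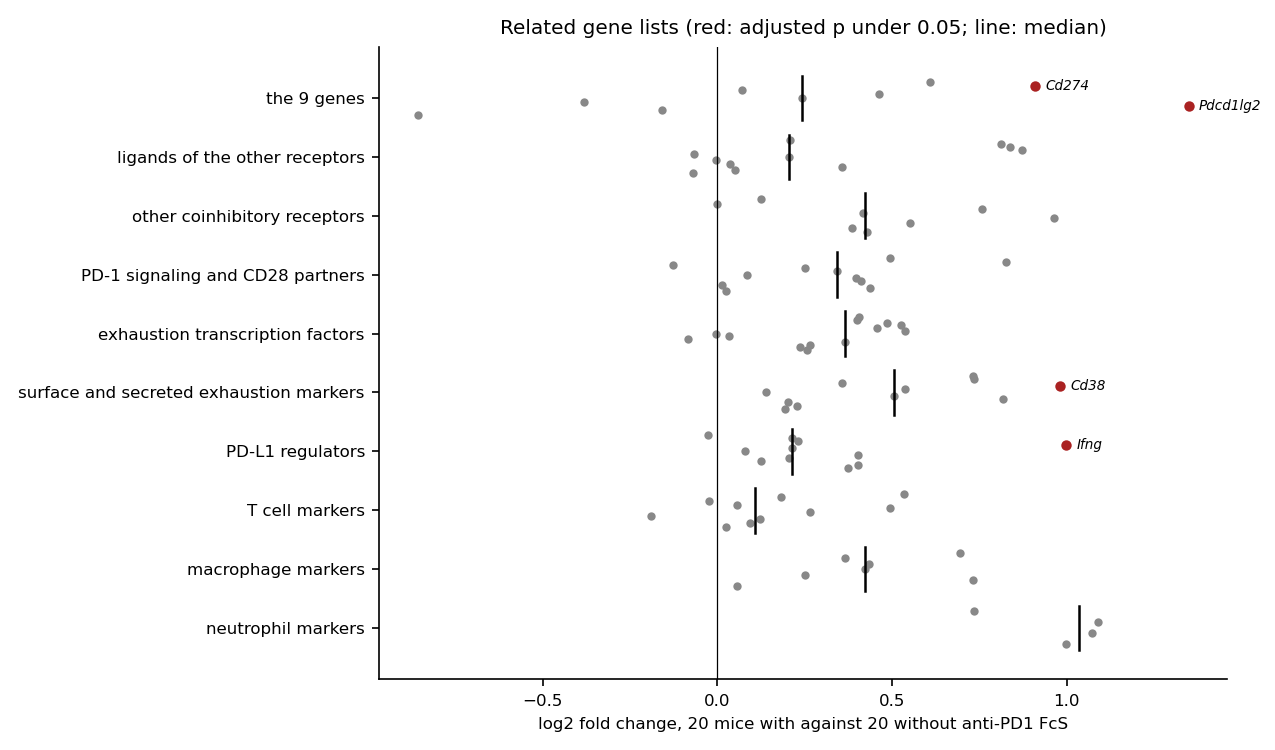
Log2 fold change of 20 mice with against 20 without anti-PD1 FcS for the 9 genes and for 9 related lists, a point per gene, with the list median as a line and genes with an adjusted p under 0.05 in red. The red points are Cd274, Pdcd1lg2, Cd38 and Ifng, and Tox is the lowest point at -0.86.

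The 9 genes fell into patterns over the 40 mice that their nearest genes describe. Pdcd1 was most like Cd8a, Cd8b1 and Cxcr6 (Pearson's r of log2 CPM 0.957, 0.932 and 0.927), and Tox was most like Cd8a, Pdcd1 and Cd3e (0.860, 0.853 and 0.810). Lag3 was nearest to Nkg7, Cd3g and Klrd1 (0.960, 0.918 and 0.915), Cd96 was near Il2rb and Ttc7 (0.891 and 0.884), and Cd226 was nearest to Ms4a4b, Il18r1 and Nbeal2 (0.910, 0.908 and 0.901). Havcr2 was near Mpeg1 and Entpd1 (0.951 and 0.946). Cd274 stood beside Acod1, Il18bp and Hk3 (0.956, 0.954 and 0.948), and Pdcd1lg2 beside Glrx, Il1rn and Nos2 (0.911, 0.908 and 0.890). Acod1 and Nos2 are known as genes of activated macrophages. Tigit had no close neighbor, with Ptpn22, Cd44 and Abi1 at 0.757, 0.712 and 0.700. Among pairs of the 9 genes, r was highest for Havcr2 with Cd274 (0.878) and lowest for Pdcd1lg2 with Tox (0.184). These correlations are descriptions over 40 mice. Library size and leukocyte transcripts differ between the mice and are common to all genes of a mouse.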

How the data were processed

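Bulk RNA was sequenced from CT26 tumor pieces of 40 mice, 8 groups of 5. The authors deposited 1 table of whole-number counts of reads per gene. The submitters' processing notes name STAR 2.5.3a, SAMtools 1.6, HTSeq 0.9.1 and GRCm38, and the gene annotation is not given in the sources used here. All 40 columns of samples were used and 0 were left out. Of 54087 genes, 31326 had at least 1 count, and 14760 passed filterByExpr of edgeR. Total counts per mouse, 11931730 to 20680548, limit the precision of low genes.

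Groups came from the labels, and the replicate number within a group, given in accession order, only names a mouse. One model with a mean for each group was fitted to all 40 mice with TMM normalization by edgeR's quasi-likelihood test (glmQLFit and glmQLFTest), and p-values were adjusted by Benjamini-Hochberg over all genes tested, with a threshold of 0.05. The comparisons were 7 treatments against the isotype control, 3 combinations against anti-PD1 FcS, the average of the 4 groups with against the 4 without anti-PD1 FcS, and 3 interactions. Log2 CPM used a prior count of 2. Fold changes are those of edgeR, and each SE was derived from the log2 fold change and its F value. CD3-relative levels are log2 CPM minus the mean log2 CPM of Cd3d, Cd3e and Cd3g. Approximate 95% intervals are the estimate with a normal multiple of its SE. Correlations over mice were tested by 100000 permutations, two-sided.

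Named genes were the 9 members, in each related list the genes with the smallest and largest fold change and those that passed, and for each member the 3 genes with the highest correlation, of which some are not reported here. Socs1, Irf1 and Ptprc were named after their values were seen. The members and lists were chosen with earlier results of these data known. Pvrig and Retnlg were not matched in the table, Nectin2 and Cd244a were matched as Pvrl2 and Cd244, and Fgl1, Tox2, Klra4, Klra8, Ly6g and Tnnt3 did not pass the filter. Promoter windows of RefSeq were matched by symbol for 6 of the 9 genes.

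Alternatives were DESeq2 size factors, no filter, the library part, the CD3 level or (added after seeing the data) the Ptprc level as a term, the compared groups only, DESeq2's Wald test, a prior count of 0.5, all T cell markers as the reference, and each mouse left out. The test was tried on simulated counts with 200 changed genes. At a log2 change of 1 it recovered 73.5% for the WT combination against the isotype control (14639 genes). For the average over partners it recovered 90% (14642 genes). These rates belong to the simulated counts, and whether they hold for the members in these tumors was not tested. In the measured counts of the WT combination against the isotype control, 0 of 14760 genes passed. R 4.3.3, edgeR 4.0.16, limma 3.58.1, DESeq2 1.42.0, Python 3.11.15, numpy 2.4.6, pandas 2.3.3, scipy 1.17.1 and matplotlib 3.10.9 were used.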

Additional observations from a re-analysis of the deposited data

Results flagged for a closer look

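In 14 of 72 sets of 5 mice (9 genes in 8 groups), the highest mouse lay farther from the others than Dixon's 95% critical value allows. Chance gives about 1 in 20 for independent, normally distributed sets, but the gaps were taken on CPM, not on a log scale, and the 9 genes share the same mice, so that 1 in 20 is not the rate to set the 14 against. All 14 were high values, and 11 of them came from libraries 52, 77, 48 and 44.

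In library 77 (anti-GARP:TGFb WT + anti-PD1 FcS), Pdcd1 was 46.3 CPM, Havcr2 113 CPM, Cd96 11.7 CPM and Cd226 15.9 CPM, while the next highest mice of the group had 11.005, 38.8, 3.04 and 3.73 CPM. The same library had the highest summed T cell and macrophage markers of the 40 mice, 368 and 6029 CPM. In library 52 (anti-PD1 FcS), Pdcd1 was 11.9 CPM, Lag3 17.3 CPM and Cd226 4.76 CPM, next to 3.25, 5.16 and 1.08 CPM.

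In library 48 (anti-TGFb), Havcr2 was 49.4 CPM and Cd96 5.77 CPM, next to 24.3 and 1.82 CPM. In library 44 (anti-GARP:TGFb FcD + anti-PD1 FcS), Pdcd1 was 18.7 CPM and Cd96 5.62 CPM, next to 7.53 and 2.39 CPM. In library 53 (anti-TGFb + anti-PD1 FcS), Cd274 was 230.5 CPM and Cd226 5.23 CPM, next to 122 and 1.40 CPM. In library 56 (anti-GARP:TGFb WT), Pdcd1lg2 was 7.63 CPM, next to 3.01 CPM. Why these tumors stood apart was not tested.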

How the results depend on the processing

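Groups held 5 mice each. The calls were less stable than the directions, and why was not tested. In the average over partners, 2 members were called, beside 0.589% of all genes (87). With DESeq2 size factors 1 member was called, beside 38 genes in all, and without the filter 0, beside 0 genes. With the CD3 level as a term it was 5, beside 17.6% (2595 genes). With the Ptprc level it was 2, then Pdcd1 and Tox, both lower, beside 0.0271% (4 genes). With a mouse left out it was 0 to 3, beside 0 to 2243 genes (3 without library 48). Against the isotype control with the CD3 level, 3 members were called in the FcD combination (Cd274 and Pdcd1lg2 higher, Pdcd1 lower, beside 2.76% of all genes) and 1 in the anti-TGFb combination (Pdcd1, lower, beside 1.71%). With the compared groups only, 1 was called in the FcD combination (Cd274, higher), among many other genes whose count is given below. With the Ptprc level it was 2 in the anti-TGFb combination (Cd96 and Tox, both lower, beside 8.86%). In the WT combination against anti-PD1 FcS it was 0 to 4 with a mouse left out (4 without library 52).

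With the Ptprc level as a term, the average log2 fold change turned to -0.30 for Lag3, -0.048 for Havcr2, -0.55 for Cd96 and -0.34 for Cd226, and in the WT combination against the isotype control to -0.057 for Havcr2 and -0.37 for Cd226. With the CD3 level it turned to -0.013 for Cd96 in the average, and to -0.13 for Cd96 and -0.0029 for Tox in the WT combination against anti-PD1 FcS. With a mouse left out, the average for Cd96 ran from -0.17 to 0.22. The cause was not tested.

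Counts over all genes moved more. The 87 genes of the average became 38 with DESeq2 size factors, 0 without the filter, 385 with the library part, 2595 with the CD3 level, 4 with the Ptprc level, 860 in DESeq2's Wald test and 0 to 2243 with a mouse left out (2243 without library 48). Against the isotype control, the FcD combination had 17 genes with the library part, 407 with the CD3 level, 177 with the compared groups only, 14 in DESeq2's test and up to 1 with a mouse left out. The anti-TGFb combination had 253 with the CD3 level, 1308 with the Ptprc level, 8 with the compared groups only, 139 in DESeq2's test and up to 2006 without library 53. Against anti-PD1 FcS, the anti-TGFb combination had 0 with the CD3 level or the compared groups only, 1357 with the Ptprc level, 78 in DESeq2's test and up to 1734 without library 53, and the WT combination up to 538 without library 52. DESeq2's test called 1 gene each for anti-GARP:TGFb WT, anti-TGFb and anti-PD1 FcS against the isotype control, 1 in the WT and 2 in the anti-TGFb interaction. The CD3 level gave 1 for anti-PD1 FcS, and a left-out mouse up to 1 in the anti-TGFb interaction. All T cell markers as the reference moved 9 of 72 group means of CD3-relative levels by more than 1 SD. No paired analysis was possible because the replicate numbers, given in accession order, only name mice.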
